A study of Mus musculus with 96 samples.

Results

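The nuclear genes of oxidative phosphorylation were followed across single mouse embryonic stem cells. The members were all protein-coding rows of the count table whose symbol starts with Ndufa, Ndufb, Ndufc, Ndufs, Ndufv, Uqcr, Cox4, Cox5, Cox6, Cox7, Cox8 or Atp5. This name rule found 89 genes among 36205 gene rows: 44 of complex I, 8 of complex III, 20 of complex IV and 17 of complex V. It used no measured value. It also took in genes that are no part of a finished complex, namely 8 Ndufaf genes that encode complex I assembly factors, and Atp5s, a coupling factor.

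The cells were of E14, a wild-type embryonic stem cell line that the labels place on a C57BL/6 background, kept in medium with serum and LIF, the leukaemia inhibitory factor. Each sample was 1 cell, whose messenger RNA and DNA were parted by the G&T-seq method, and counts were analysed for 61 of 76 listed serum/LIF wells. The other serum/LIF wells, 16 wells of 2i medium and 4 empty control wells were not analysed here, so there was no other condition to compare with. The labels name no separate cultures, so the 61 cells stand for 1 culture, the spread between them is given as a description, and no test was run.

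Complex I takes electrons from NADH, complex III passes them from ubiquinol to cytochrome c, and complex IV hands them to oxygen. The proton gradient that these pumps build drives ATP synthase, complex V. Each of these complexes mixes subunits encoded in the nucleus with a few encoded in the mitochondrial genome. Embryonic stem cells are known for strong glycolysis beside active mitochondria, and NRF1, GABPA and YY1 are among the transcription factors known to act on nuclear genes of the chain.

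Total counts per cell ran from 2417702 to 6787261 with a median of 4244480, and genes with a count per cell from 5317 to 10032. Of 10 markers of pluripotent cells 9 had counts in 31 or more cells, among them Pou5f1 and Sall4 in all 61 and Esrrb in 18 as the exception. Of 9 fibroblast, 7 primitive endoderm and 6 trophectoderm markers none reached 31 cells, and of 5 neurectoderm markers only Nes did, in 47. The summed fibroblast markers took between 0% and 0.0213% of a cell's counts, and the primitive endoderm markers between 0% and 0.0208%. The neurectoderm markers took up to 0.0613% and the trophectoderm markers up to 0.0589%, against 0.0429% to 1.52% for the pluripotency markers. Over the cells, the Spearman rho of these shares with the members' mean was 0.31 for the pluripotency list and between -0.21 and -0.13 for the other 4 lists. Their part in the results below was not tested.

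Most members were found in every cell. At least 1 count was present in all 61 cells for 57 of 89 members (64.04%), beside 5.59% of the 21270 protein-coding rows. A filter of at least 10 counts in at least 10 cells was passed by 82 members, beside 45.4% of protein-coding rows. All 8 genes of complex III and all 44 of complex I passed, as did 16 of 17 in complex V and 14 of 20 in complex IV. No assembly factor was detected in all cells: the 8 Ndufaf genes had counts in 23 (Ndufaf5) to 60 (Ndufaf2) cells.

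The share of each cell's counts that the members took together was 2.12 times as large in the highest cell as in the lowest. Their summed share of all counts was lowest in the cell of well A07 (1.55%), had a median of 2.22% and was highest in B10 (3.28%), a coefficient of variation of 13.6%. The 13 genes of the mitochondrial genome spread far more, from 0.0300% in A07 over a median of 1.24% to 3.25% in B05, with a coefficient of variation of 42.7%. By complex, the median share was 0.732% for complex I (0.528% to 1.03%), 0.269% for complex III (0.143% to 0.473%), 0.438% for complex IV (0.240% to 0.721%) and 0.757% for complex V (0.429% to 1.06%).

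The extreme cells were the same for several complexes. A07 was lowest for complexes I and IV and for the mitochondrial genes, and B10 was highest for complexes I, III and V. B10 was also the cell with the fewest genes detected, 5317, and E01 and H10, at 7033 and 6430 genes, were among the high ones as well. Of other cells with few genes, F01 (6456 genes) had a share of 2.59%, F06 (6786) of 2.29% and B05 (7050) of 2.01%. Chromosome 14 took 1.32% of counts in E01, 1.72% in H10 and 3.41% in B10, against a median of 3.06%. Of the 57 members present in every cell, 10 had their highest value in B10, and 8 each had their lowest in A07 and in G09. The part of genes detected or of chromosome 14 counts in these shares was not tested. The median share stayed at 2.22% without B10 and F07.

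**Figure D1:**
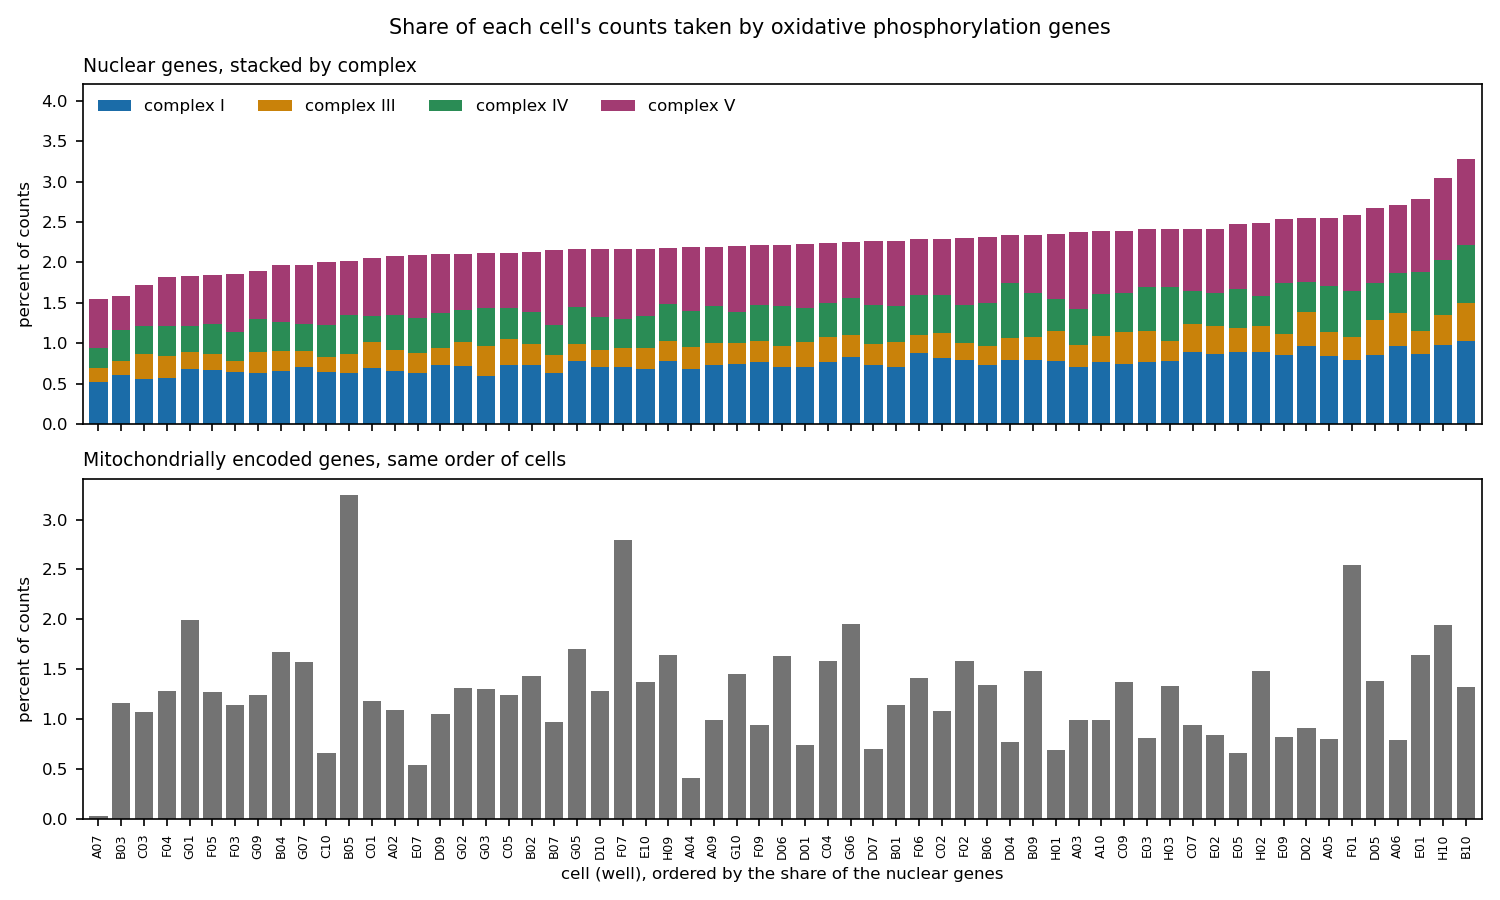
Share of counts (percent, y axis) of the 89 nuclear genes stacked by complex (upper panel) and of the 13 mitochondrially encoded genes (lower panel) in each of 61 cells (x axis, ordered by the upper panel). The nuclear share runs from 1.55% to 3.28%, while the mitochondrial share runs from 0.0300% in the leftmost cell, A07, to 3.25% in B05. A07 is lowest in both panels, and no correlation of the plotted shares is given.

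Levels of different genes were compared as CPM per kb: counts relative to the cell's total, scaled between cells by the TMM method (CPM), and divided by the kilobases of annotated exon. Over the 82 members that passed the filter the median level was 95.3 CPM per kb. Complex III had the highest median, 232 CPM per kb, over a narrow range of 81.8 to 469. Complex IV followed with 203 (7.40 to 699), complex V with 149 (0 to 770) and the 36 complex I subunits with 94.7 (1.09 to 621). The 8 assembly factors lay lower, with a median of 19.6 and a highest value of 22.8 CPM per kb.

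The single highest member was Atp5c1, which encodes the gamma subunit, the rotor shaft of ATP synthase. It ranged from 312 to 1507 CPM per kb with a median of 770, so that its lowest cell lay above the median of most members. Cox4i1, the ubiquitous form of complex IV subunit 4, came next with 376 to 1818 and a median of 699. Cox6b1, which lies where the monomers of complex IV meet, had a median of 688 (345 to 1252). These 3 genes lay within each other's ranges over cells, and their order cannot be read as fixed.

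In complex I the leading genes were accessory subunits. Ndufb6 ran from 114 to 2110 CPM per kb with a median of 621, a wide spread among the high members. Ndufa1 had a median of 438 (123 to 1051) and Ndufa2 of 410 (158 to 746). The 7 nuclear core subunits, which carry the redox centres, had a median of 94.0, close to the 95.5 of all 29 accessory subunits, and a range of 19.8 for Ndufs1 to 180 for Ndufv2. Ndufs1, the largest core subunit, was listed at 0 in 3 cells and reached 100 CPM per kb in B03.

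Complex III was led by the small subunits Uqcr11 (median 469, range 213 to 1117), Uqcrb, which binds ubiquinone (384, 133 to 949), and Uqcrh, the hinge protein (286, 73.6 to 652). The lowest were Uqcrq at 100 (20.5 to 340) and the core protein Uqcrc2 at 81.8 CPM per kb (0 to 333). In complex IV Ndufa4, once assigned to complex I, followed Cox4i1 and Cox6b1 with a median of 491 (218 to 921). In complex V Atp5c1 was followed by the catalytic beta subunit Atp5b (385, 128 to 600) and the stalk subunit Atp5o (244, 84.2 to 584).

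The order depends on the length used. With the length of the transcript of the longest coding sequence in place of all annotated exons, 6 of the 10 highest members stayed among the 10 highest, and Ndufa4 led, ahead of Cox4i1 and Atp5c1. Of members with low levels, Ndufb7, Ndufb2, Ndufab1 and Atp5l have 4522, 5628, 6883 and 6443 annotated exon bases against 623, 455, 1416 and 544 in that transcript. Ndufb2 moved from rank 70 to rank 35. In complex I, Ndufa7 (774 CPM per kb), Ndufb8 (769) and Ndufa11 (636) then led, ahead of Ndufb6 (621). Ndufa1 moved from rank 7 to rank 25 and Ndufa2 from rank 8 to rank 27. In complex V, Atp5c1 was then followed by Atp5j (1006) and Atp5b (852), while Atp5o (573) lay below Atp5mpl (701) and Atp5h (641). Uqcrq, with 1831 exon bases, moved from rank 39 to rank 24, at 452 CPM per kb by that length, above Uqcr10 (346), Uqcrfs1 (137) and Uqcrc2 (110.1). The complex I core subunits then had a median of 167.5 and the accessory subunits of 152.

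**Figure D2:**
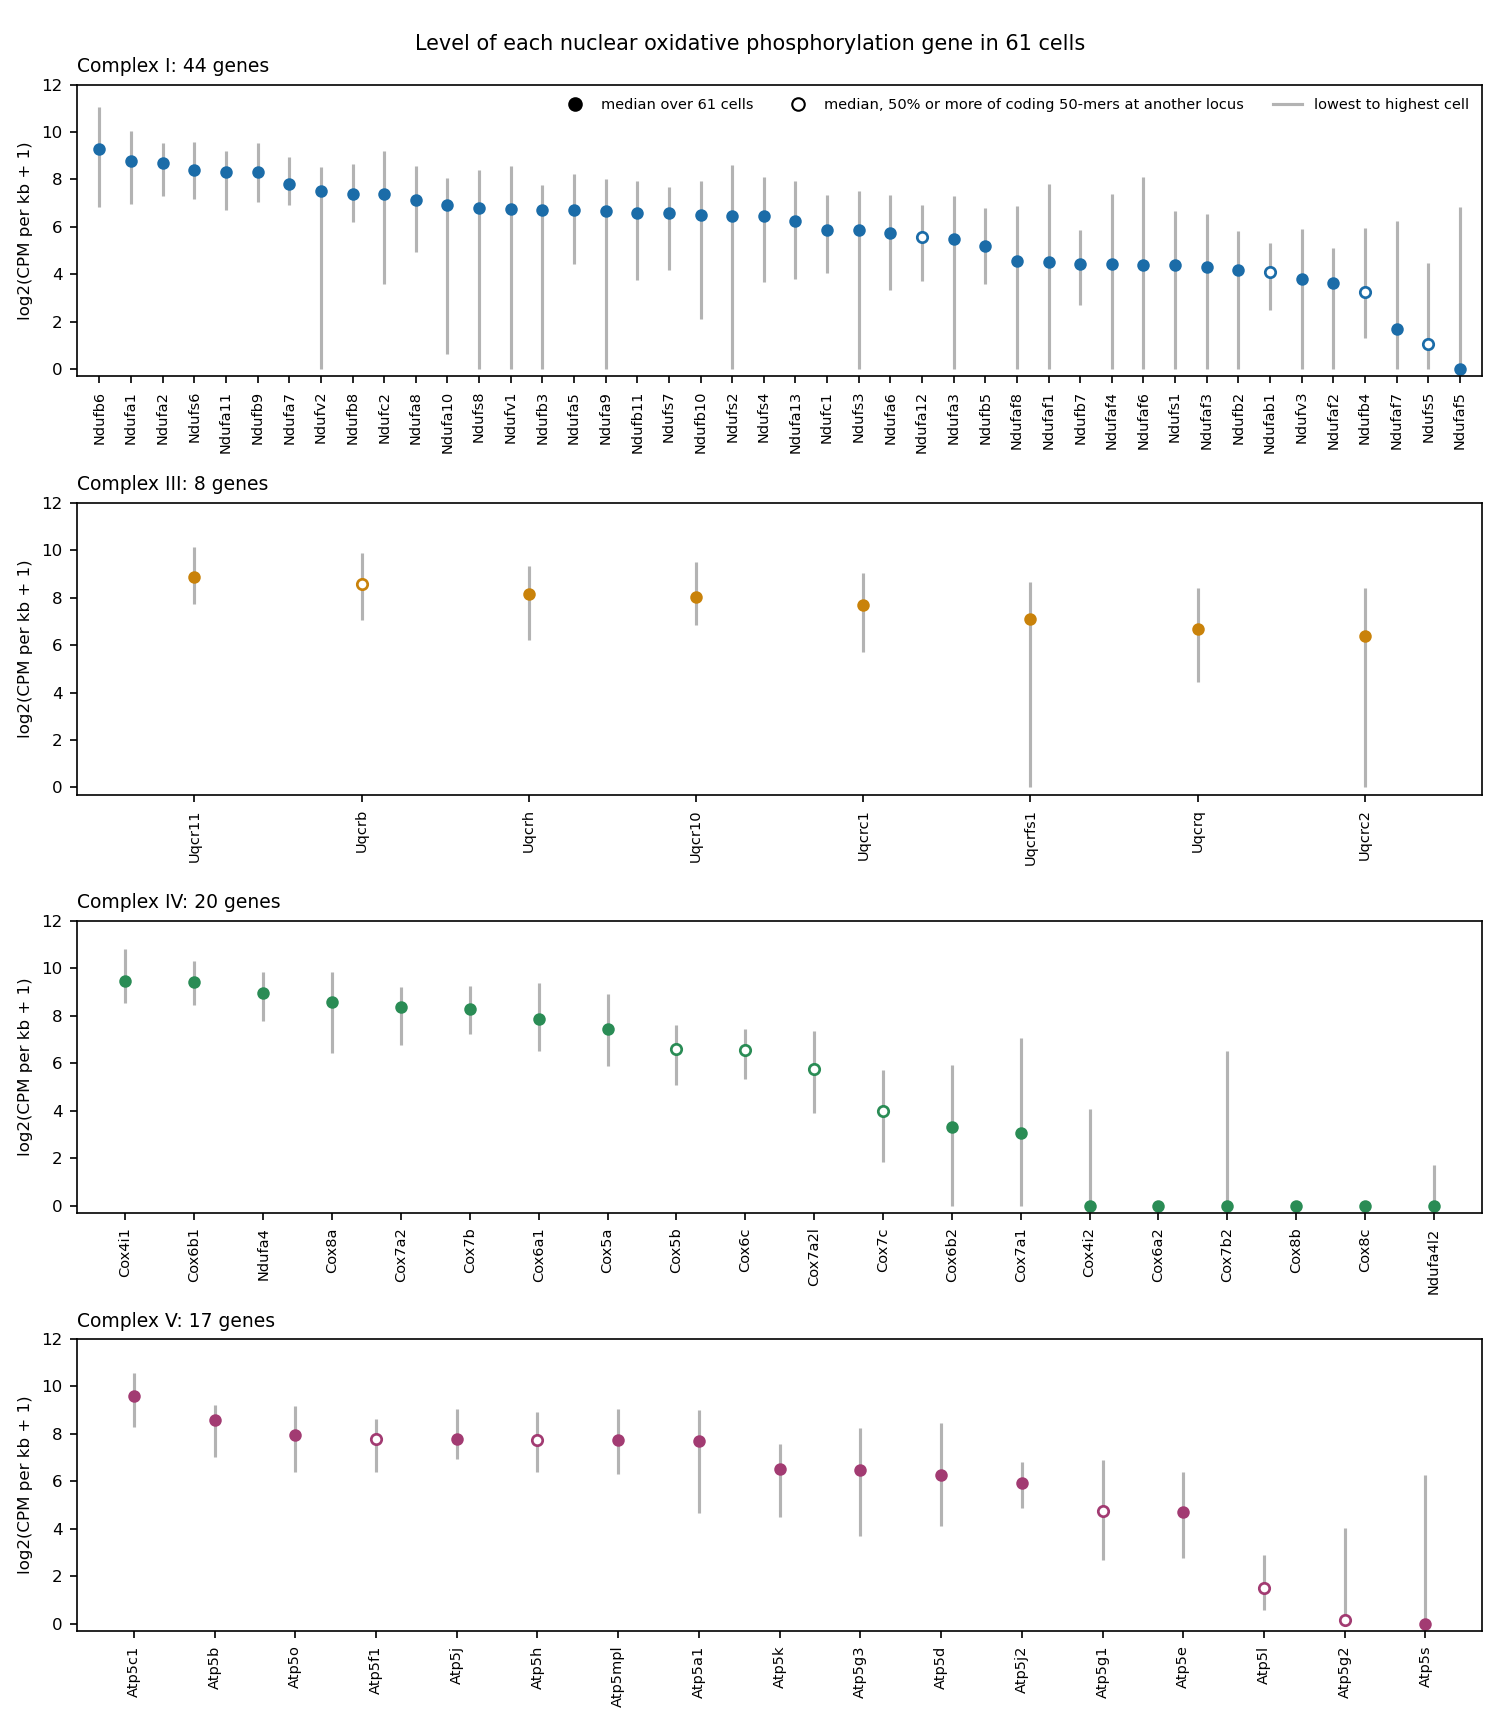
Level of each of the 89 genes as log2(CPM per kb + 1) (y axis) by complex (panels), ordered by the median. Points are medians over 61 cells and grey lines run from the lowest to the highest cell; open points mark genes with 50% or more of their coding 50-mers at another locus. Most subunits sit between 5 and 10 on this scale, the assembly factors lie in the right part of the complex I panel, and 6 tissue forms of complex IV are at a median of 0.

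Several complex IV subunits exist as a broad form and a tissue form, and in each set the broad form was the one detected throughout. Against Cox4i1 at 376 to 1818 CPM per kb, Cox4i2, a form known from lung, had counts in 5 cells with a highest value of 16.1 CPM per kb. Cox6a1 ranged from 90.7 to 658 CPM per kb (median 234), while Cox6a2, the heart and muscle form, had no count in any cell. Cox8a ranged from 86.3 to 916 CPM per kb (median 384), and neither Cox8b, another heart and muscle form, nor Cox8c, a testis form, had a count. A count of 0 over all 260561560 counts allows a mean level of up to 0.0115 CPM, and 0 of 61 cells allows up to 4.92% of cells with a count at these depths, which does not limit the share of cells that express the gene. Of protein-coding rows, 26.5% had no count in any cell.

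Other tissue forms were present at low levels. Cox6b2, the testis form, had counts in 50 cells, with a median of 8.96 and a highest value of 59.1 CPM per kb in H03, below the lowest cell of Cox6b1 (345 CPM per kb). Cox7a1, the heart and muscle form, had counts in 36 cells, with a median of 7.40 and a highest value of 132 CPM per kb in C02. Its broad partner Cox7a2 ran from 109.5 to 597 CPM per kb around a median of 329, so that the ranges met only at their ends. Cox7b2 was seen in 4 cells but reached 89.9 CPM per kb in D05, against 148 to 608 for Cox7b. Ndufa4l2, a hypoxia-induced relative of Ndufa4, was seen in 2 cells and never above 2.30 CPM per kb.

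Cox7a2l, which helps to join complexes III and IV into supercomplexes, was present in all cells at 13.9 to 165 CPM per kb with a median of 53.3. The ring of identical c subunits in ATP synthase is encoded by 3 genes. Atp5g3 had a median of 87.6 CPM per kb (11.98 to 304) and Atp5g1 of 25.98 (5.43 to 119), and their ranges overlapped. By the length of the main coding transcript the medians of Atp5g3 and Atp5g1 were 267 and 214, so the gap rests largely on the length used. Atp5g2 had counts in 33 cells, a median of 0.126 CPM per kb and a highest value of 15.5 in F03.

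Of the remaining members seen in fewer than 31 cells, Ndufaf5, which hydroxylates a core subunit during assembly, was found in 23 cells and reached 202 CPM in D02. Atp5s was found in 15 cells and reached 153 CPM in C01. For both the median was 0, so the values describe a few cells with moderate counts and many at 0.

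Some constitutive subunits had levels far below those of their partners, and most of these have near-identical copies elsewhere. The 4 lowest were Atp5g2 (0.126 CPM per kb), Ndufs5 (1.09), Atp5l (1.805) and Ndufb4 (8.62). They were followed by Ndufv3 (13.1), for which no such copy was found among annotated genes, and Cox7c (15.1). For each member the share of coding 50-base stretches that also occur in an annotated gene at another locus was taken from GENCODE M21 (GRCm38). It was 50% or more for 14 of 89 members (15.7%), beside 8.33% of 21186 protein-coding genes and 5.74% of the 9648 that passed the filter. All coding 50-mers of Cox7c, Atp5l, Atp5g2 and Ndufb4 were held elsewhere, 99.8% of Ndufab1 and 99.7% of Atp5g1. The sources used here do not say how reads that fit several loci were counted, so the counts of these genes are uncertain. The next values are CPM without a length, since they ask where reads were assigned.

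Ndufs5, a subunit of the membrane arm of complex I, shows the pattern in its sharpest form. It lies on chr4:123712710-123718202 and had counts in 55 cells, from 0 to 18.3 CPM with a median of 0.940. The processed pseudogene BC002163, at chr16:42955631-42955949, ran from 11.6 to 82.6 CPM with a median of 37.6, above Ndufs5 in all 61 cells. Both together had a median of 39.4 CPM. The coding sequence of Ndufs5 and BC002163 differ at 2 of 318 bases (99.4% identical), both within the stretch shown next, coding bases 16 to 105, in capitals where they differ. The stretches lie on chr4:123715975-123716064 (minus strand, an exon of Ndufs5) and chr16:42955646-42955735 (plus strand), and the letters are those of the reference genome, not of these cells.
Ndufs5: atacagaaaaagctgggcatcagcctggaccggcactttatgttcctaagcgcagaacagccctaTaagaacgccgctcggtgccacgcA
BC002163: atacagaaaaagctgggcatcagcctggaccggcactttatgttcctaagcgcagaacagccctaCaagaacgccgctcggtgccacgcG

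For Cox7c, a small complex IV subunit, the copy is exact over the whole coding sequence of 189 bases. The gene on chr13:86044816-86046904 had 2.95 to 59.1 CPM with a median of 17.04, and the processed pseudogene Gm12338 on chr11:75599763-75599954 had 2.52 to 22.1 CPM with a median of 8.796. The copy exceeded the gene in 6 of 61 cells. Both loci hold the first 60 coding bases shown here, at chr13:86046616-86046675 and chr11:75599895-75599954 (both minus strand, GRCm38), so a read of this stretch has no base that tells them apart.
Cox7c and Gm12338: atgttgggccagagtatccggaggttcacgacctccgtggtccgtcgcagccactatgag

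The other members of this kind differed in how far the copy's counts came near their own. Ndufa12 had a median of 73.2 CPM (19.2 to 188) against 24.4 for its copy Gm15920, and Cox7a2l 78.8 against 26.5 for Gm6969. Atp5l, the g subunit of ATP synthase, had 3.32 to 41.7 CPM with a median of 11.6, and Gm10221 a median of 2.52. Ndufb4 had a median of 16.5 CPM (2.90 to 119), while Ndufb4c, which holds all of its coding 50-mers, had a median of 0. Not every shared gene was low: Atp5g1 stood at a median of 128 CPM beside 10.2 for Gm10039, Ndufab1 at 112 beside 7.75 for Gm4459, and Atp5f1, at 50.1% shared, at 898. Over the 82 members that passed the filter, the rho across genes of the shared percentage with the level per kilobase was -0.0097, and genes are not independent replicates. The 13 members with 50% or more shared that passed the filter had a median level of 46.7 CPM per kb, and the other 69 of 104.4. By the length of the main coding transcript these medians were 129 and 183.

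**Figure D3:**
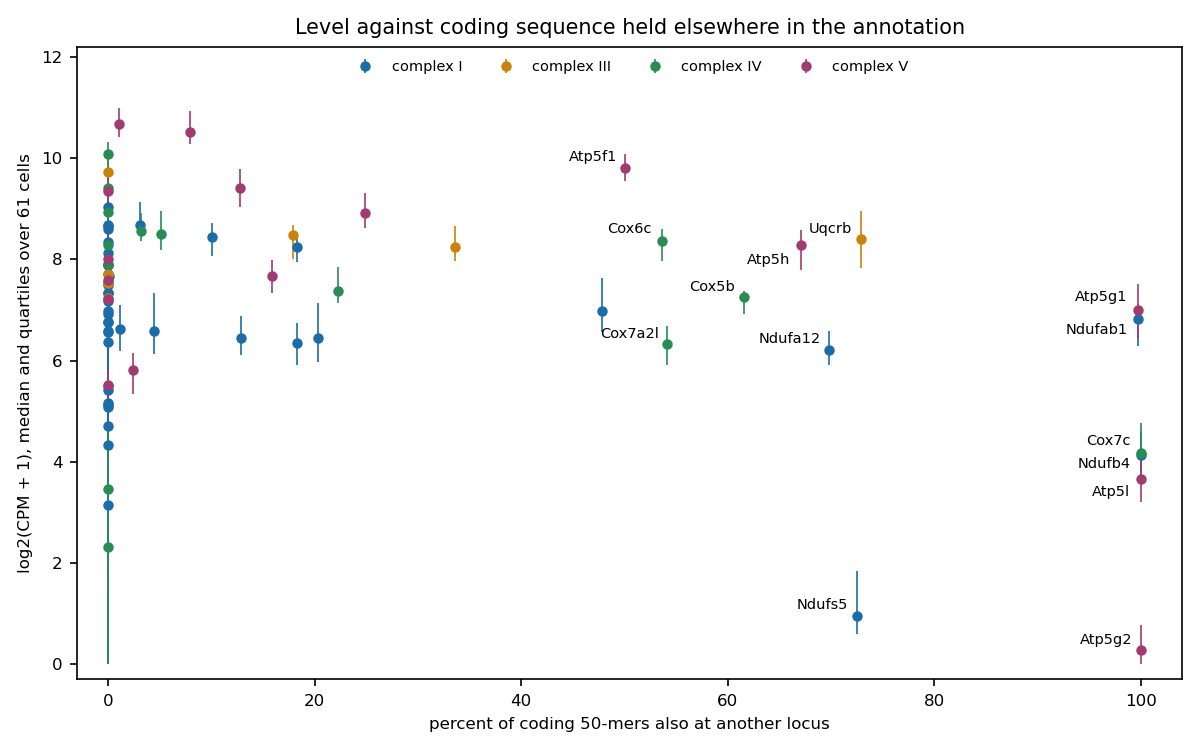
Median level of each member detected in 31 or more cells as log2(CPM + 1) (y axis, bars are quartiles over 61 cells) against the percent of its coding 50-mers that also lie at another locus (x axis), coloured by complex. Among the named genes at the right, Cox7c, Ndufb4, Atp5l, Ndufs5 and Atp5g2 lie below the others, with medians from 0.212 to 17.04 CPM.

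The promoters of the members were searched for the cores of 3 factors known to act on the chain's genes. The window was 250 bases before to 50 after the annotated start, from RefSeq on GRCm38.p6, and letters were searched on both strands. All 89 members matched a RefSeq gene and 73 of them a window in the table. The NRF1 core GCGCATGCG was found in 10 of 73 members (13.7%), beside 2.61% of 17492 protein-coding genes and 1.75% of all 32851 windows. The ETS core CCGGAAG, which GABPA binds, was found in 16 (21.9%) beside 12.9% of protein-coding genes and 8.86% of windows. The YY1 core AAGATGGCG was found in 8 (10.96%) beside 2.14% and 1.40%. In all, 28 members held at least 1 core, 6 held 2 or more and 45 held none.

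In 7 members the NRF1 core lay wholly before the start, and these stretches are shown with the core in capitals, 5′ to 3′ on the gene's strand (plus for Ndufa11 and Ndufaf4, minus for the others; GRCm38.p6). They show that 5 of the 7 share the longer palindrome, in which the core reads on both strands with an overlap of all but 1 base at each end.
Atp5k chr5:108434422-108434467: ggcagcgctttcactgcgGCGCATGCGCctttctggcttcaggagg
Atp5g2 chr15:102671062-102671107: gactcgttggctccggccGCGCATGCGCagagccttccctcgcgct
Atp5l chr9:44920957-44920992: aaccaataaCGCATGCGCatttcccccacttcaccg
Cox6a1 chr5:115349093-115349138: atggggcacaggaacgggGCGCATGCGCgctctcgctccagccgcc
Ndufa11 chr17:56717684-56717729: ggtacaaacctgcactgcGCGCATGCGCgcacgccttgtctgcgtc
Ndufa8 chr2:36049339-36049365: cttgcgcgtcgctggagaCGCATGCGC
Ndufaf4 chr4:24897952-24897997: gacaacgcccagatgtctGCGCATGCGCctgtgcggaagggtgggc

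Counted from the start site, the core begins at position -50 in Atp5k, -42 in Atp5g2, -60 in Ndufa11, -113 in Ndufaf4, -162 in Cox6a1, -241 in Atp5l and -9 in Ndufa8. In Uqcr11, Uqcrc1 and Ndufaf5 it lay across or after the start. These starts are those of RefSeq. By the gene bounds of GENCODE M21 the printed stretches of Atp5g2 and Ndufa8 lie inside the gene, and that of Atp5k crosses the gene's start. Of the 8 members with the YY1 core, 7 held it after the start, and in 6 of them (Atp5j2, Ndufa9, Ndufc1, Ndufs4, Ndufs6 and Ndufs7) its ATG is the annotated start codon. The genes that hold an NRF1 core differed widely in level, from Uqcr11 at 469 CPM per kb to Atp5g2 at 0.126 and Ndufaf5 at a median of 0. A match of letters is a description, not a site or a cause, and no match says only that these letters are not in this window. Among members that passed the filter and have a window, the median level was 139 CPM per kb for 9 with the NRF1 core and 94.0 for 61 without it, and their median rho with the other members was 0.19 and 0.20. For the ETS core the median levels were 162 (16 members) and 91.3 (54), with rho of 0.22 and 0.18. For the YY1 core they were 90.4 (8) and 95.3 (62), with rho of 0.30 and 0.19.

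The spread of most members between cells was small for genes of their level. It was measured as the squared coefficient of variation over the value that a trend through all 10868 genes gives at the same mean. The median ratio was 0.490 over the 82 members and 1.41 over all genes. Among the 2086 genes whose mean lies between 89.4 and 346 CPM, the quartiles of the members, the median was 1.48 for all and 0.519 for the 40 members there. A ratio under 0.5 was found for 42 of 82 members (51.2%), beside 14.5% of all genes, and a ratio over 2 for 1 member, beside 26% of all genes.

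The single member over 2 was Ndufaf6, an assembly factor, with 2.12. It had counts in 46 cells, a median of 25.03 CPM and a highest value of 335 CPM in H02. The next were Ndufs1 (1.92), Ndufaf5 (1.84), Ndufaf1 (1.73) and Uqcrc2 (1.72), of which Uqcrc2 ran from 0 to 851 CPM around a median of 209. The 8 assembly factors had a median ratio of 1.64, the 7 complex I core subunits 0.929 and the 29 accessory subunits 0.438. The 11 constitutive complex IV subunits had 0.333, and 10 of them lay under 0.5. In complex III the 3 core proteins had 0.917 to 1.72 and the 5 small subunits 0.399 to 0.710.

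The lowest ratios were those of Atp5l (0.103), Ndufs5 (0.154), Cox7c (0.168), Atp5e (0.182) and Atp5k (0.192). Atp5e, the epsilon subunit in the rotor, ran from 10.3 to 146 CPM around a median of 44.6, and Atp5k, the e subunit in the membrane, from 13.3 to 118 around 55.5. Genes at low means had low ratios in general: among the 544 genes of lowest mean, near 2.12 CPM, the median was 0.149, about that of Ndufs5. For Atp5l, with a mean of 13.1 CPM, the genes near 13.9 CPM had a median of 1.61 and a 10th percentile of 0.626. Atp5l, Ndufs5 and Cox7c are among the genes with copies described above.

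**Figure D4:**
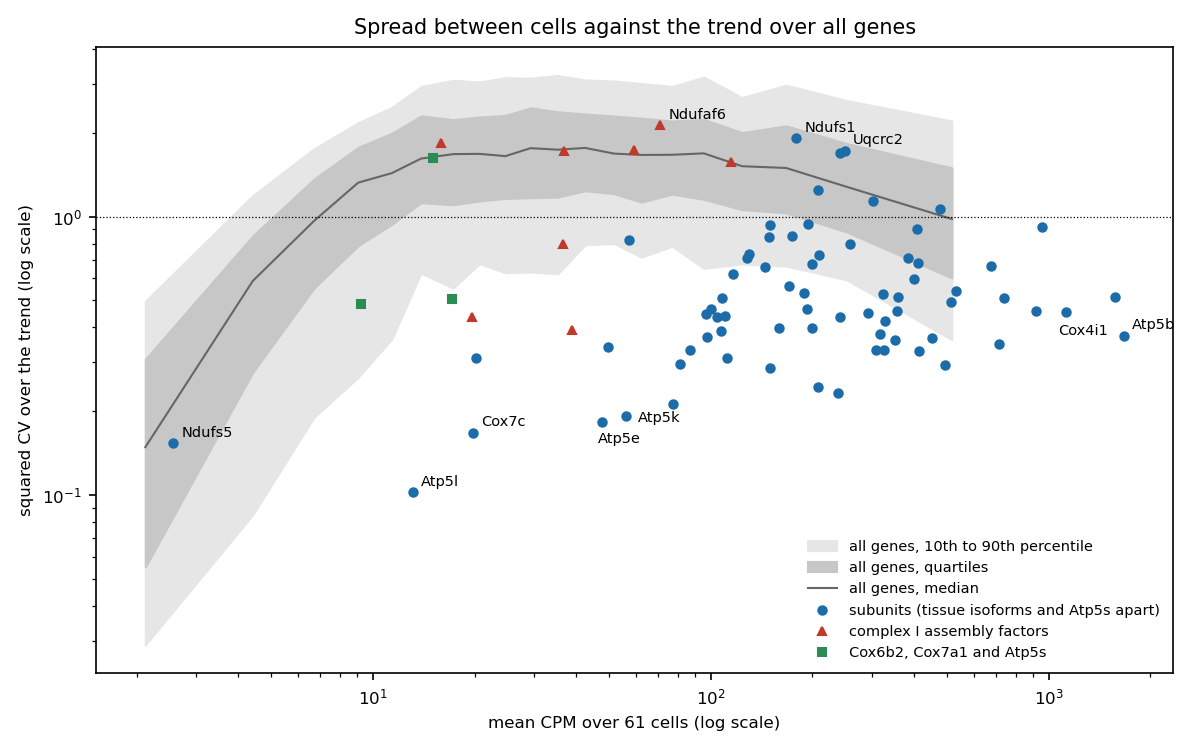
Ratio of the squared coefficient of variation (CV) to the trend (y axis, log scale) against mean CPM (x axis, log scale) for 82 members, with the percentiles of all 10868 genes in 20 bins of equal size as grey bands. Most subunits lie under the quartile band, with a median of 0.464 without the assembly factors and Atp5s, whereas 5 of the 8 assembly factors (triangles) lie near or above the median of all genes.

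Pairs of members moved together only weakly. The median Spearman rho over pairs was 0.047 among 82 members and 0.014 over all pairs of genes that passed the filter, and 61.1% and 53.9% of pairs lay above 0. It was 0.092 among the 57 members present in all cells and 0.016 among all 1471 genes present in all cells. Measured the same way it was 0.29 for 83 cytosolic ribosomal protein genes, 0.38 for 11 mitochondrially encoded genes and 0.34 for 38 G2/M genes, and 0.041 for 37 proteasome genes. With DESeq2 size factors the members' value was 0.11 and that of all genes 0.0057. In counts of this kind such weak values are no finding on their own.

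Complex IV stood highest, with a median rho of 0.13 over its 14 measured genes, followed by complex III with 0.098, complex V with 0.027 and complex I with 0.024. Pairs from the same complex had a median of 0.032, of which 946 of 1185 pairs are in complex I, and pairs from different complexes 0.055. Within complex IV the median was above those of its pairs with complexes I (0.053), III (0.081) and V (0.080). Within complex III it was above those with I (0.056), IV (0.081) and V (0.072), whereas complexes I and V showed no higher value within. The strongest pairs were Cox7c with Cox7b (0.56), Cox7b with Atp5k (0.55), Atp5j with Ndufa4 (0.53), Atp5g1 with Atp5h (0.53) and Cox6c with Ndufb8 (0.52). The most negative were Atp5a1 with Cox7a1 (-0.47) and Atp5g3 with Ndufc1 (-0.44). These pairs are the ends of all pairs computed.

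Of all members, Atp5k had the highest rho with the mean of the others, 0.57, followed by Uqcr10, a complex III subunit (0.56), Cox7b (0.54), Cox8a (0.52) and Ndufa5 (0.51). The lowest were Atp5s (-0.31), Atp5f1, the b subunit of the ATP synthase stalk (-0.25), Cox7a2l (-0.17), Ndufaf5 (-0.16) and Ndufaf7 (-0.14). Atp5f1 was among the abundant members, at 338 to 1612 CPM around a median of 898, and was present in all cells. Across members, rho with the module rose with the number of cells with a count (0.55) and less with the median CPM (0.26), over 82 genes that share the same cells.

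**Figure D5:**
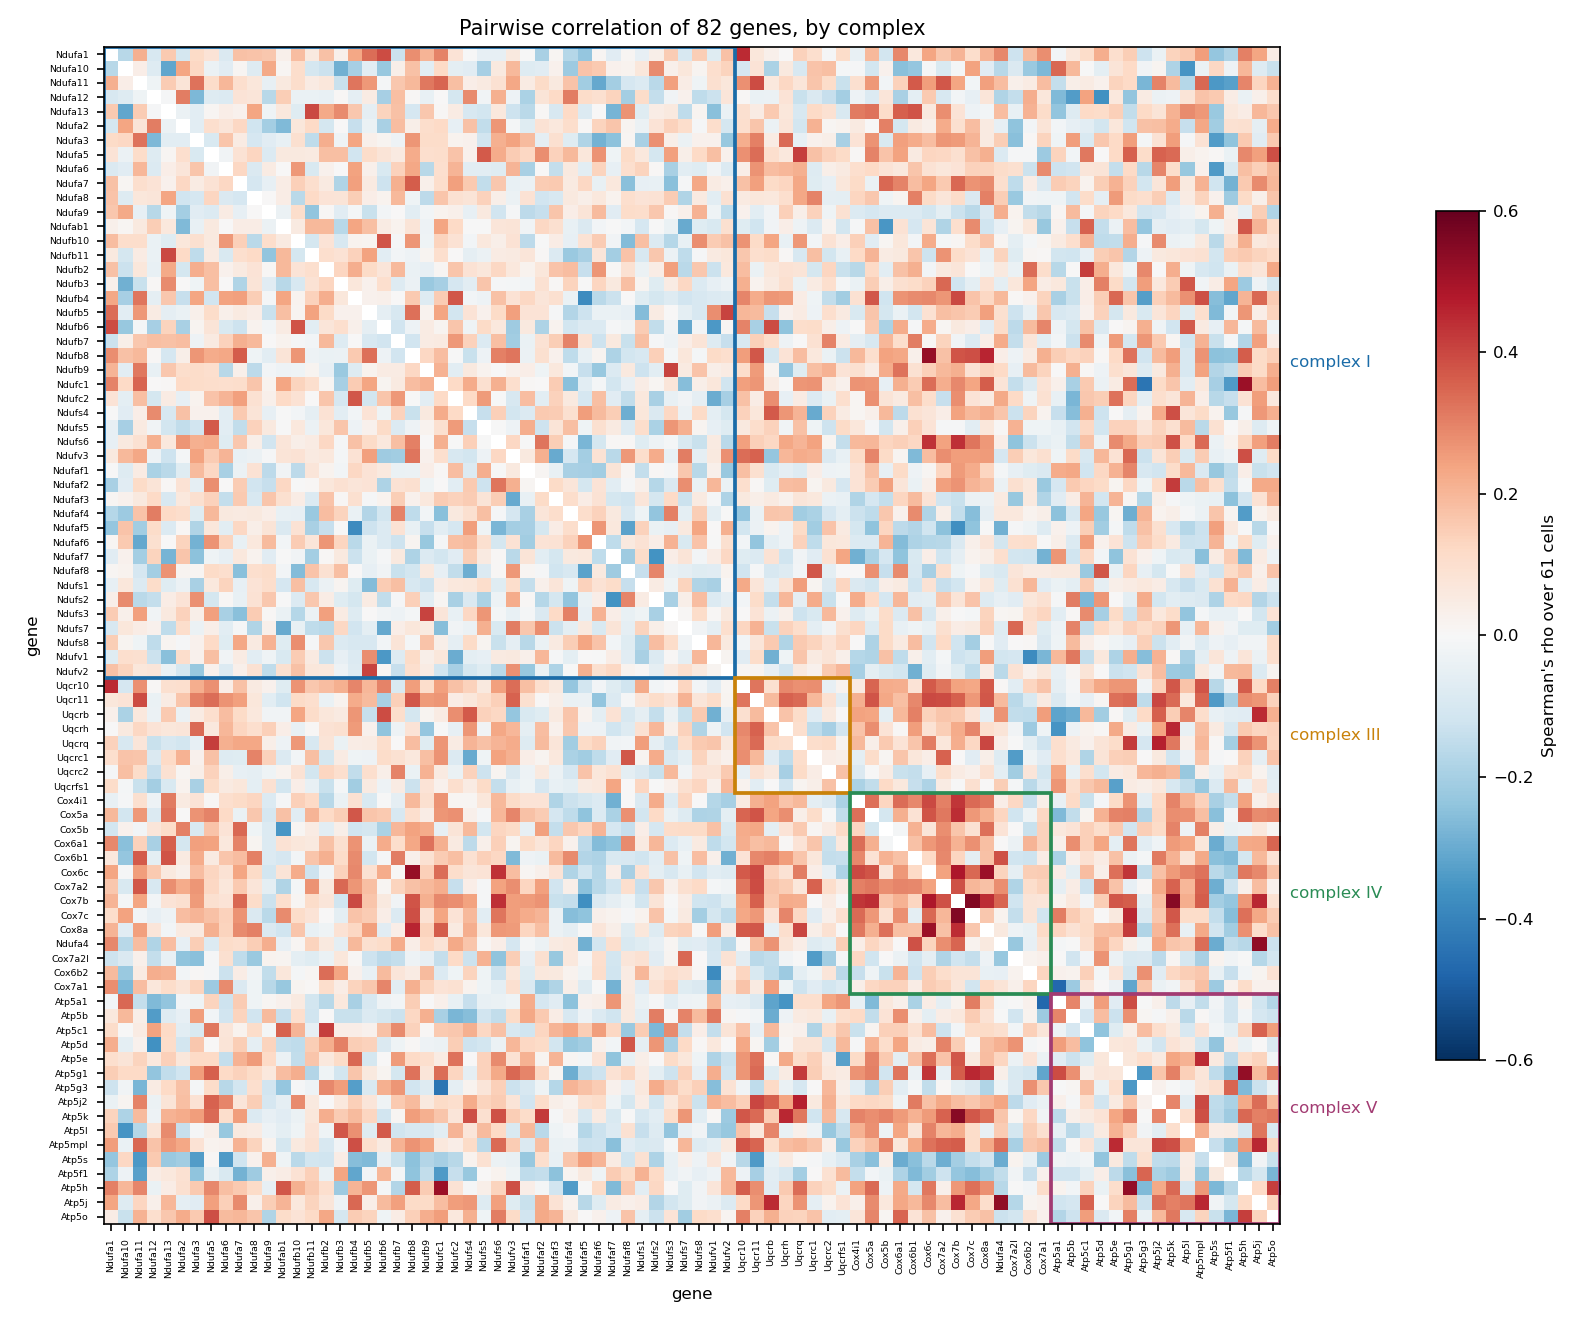
Spearman's rho over 61 cells for each pair of 82 genes (colour, red positive, blue negative), ordered by complex and role on both axes, with each complex boxed. The complex IV box is the most evenly red (median 0.13), with the assembly factors, Atp5s and Atp5f1 as pale or blue bands, and the complex I box is close to 0 (median 0.024).

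Over the 61 cells, Spearman's rho between the means of the complexes was 0.57 between complexes I and III, 0.53 between I and IV, 0.50 between I and V, 0.39 between III and IV, 0.58 between III and V and 0.49 between IV and V. These values are not comparable with those of single pairs, since means over many genes hold less noise, and all share the same libraries and scaling. The members' mean had a rho of -0.33 with the number of genes detected and 0.32 with total counts, and the part of these in the relations between complexes was not tested.

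No clear relation was seen between the nuclear and the mitochondrially encoded genes of the chain. The rho of the members' mean with the mean of 11 mitochondrially encoded genes was -0.16 (Pearson r 0.079), and -0.19 (r -0.20) without A06 and A07, the cells farthest from the median of the members' mean. With DESeq2 size factors it was 0.085, so its sign depends on the scaling. It was -0.26 on residuals after genes detected and -0.25 without the members that share 50% or more of their coding 50-mers, the latter chosen after seeing the data. By complex it was -0.21 for I, -0.24 for III, 0.0032 for IV and -0.039 for V. The mean of the 11 mitochondrially encoded genes gives each gene the same weight. It includes mt-Co2, mt-Atp8, mt-Atp6 and mt-Co3, with medians of only 2.06, 0.470, 3.67 and 1.42 CPM. The part of these low genes in the values was not tested. The nuclear mean was higher in cells with higher means of the cytosolic ribosomal protein genes (rho 0.54, r 0.55, and rho 0.50 without those 2 cells) and the proteasome genes (rho 0.50, r 0.49, and rho 0.46 without them). It had -0.24 with 18 genes of the tricarboxylic acid cycle, -0.095 with 20 glycolysis genes, 0.12 with 26 S-phase genes and 0.0031 with 38 G2/M genes.

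Among the genes outside the module whose pattern was most like its mean, by rho over 61 cells over all genes that passed the filter, were Rpl35a (0.68) and Rpl35 (0.65), then Wdr38 (0.62), Psmb6 (0.61), Elob (0.59), Gm2000 (0.58), Bola2 (0.57), the pseudogene Rpl17-ps5 (0.57) and Hint1 (0.55). All of these named genes had counts in every cell.

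Other genes of the pathway gave the following levels. Of complex II, which feeds the chain from succinate, Sdhb was present in all cells at 19.3 to 859 CPM (median 328), Sdhd in 60 (median 327), Sdha in 60 (239) and Sdhc in 59 (85.6). Cyc1, the cytochrome of complex III, had a median of 174 CPM (0 to 493). Cycs, somatic cytochrome c, stood at a median of 2.187 CPM (0 to 27.2), and all of its coding 50-mers lie at another locus too. The same holds for all coding 50-mers of Usmg5, which was present in all cells at 41.9 to 168 CPM (median 96.8). Atpif1, the inhibitor of ATP synthase, was present in all cells at 172 to 635 CPM (median 294). Of 29 further assembly genes 28 passed the filter, but only Cox17, the copper carrier to complex IV, was present in all 61 cells.

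Of 15 regulators of the chain 12 passed the filter. Gabpa was present in all 61 cells (median 114 CPM, 5.21 to 415), Yy1 also (56.8, 1.31 to 165), and Nrf1 in 54 (68.7, 0 to 472). The coactivators Ppargc1a and Ppargc1b had counts in 1 and 2 cells, and Esrra, their nuclear receptor partner, a median of 0.690 CPM, while the related Pprc1 was found in 56 cells (35.4). The rho with the members' mean was -0.088 for Nrf1, 0.099 for Gabpa and -0.00032 for Yy1. Tfam, which packages mitochondrial DNA, had the highest value of the 12 (0.27).

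The mitochondrially encoded genes also fell into high and low ones. mt-Co1 had a median of 5294 CPM and mt-Nd1 of 2794, whereas mt-Co2, mt-Atp6 and mt-Co3 had 2.06, 3.67 and 1.42 and mt-Nd3 and mt-Nd4l medians of 0. The share of coding 50-mers held at another locus was 100% for mt-Co2, mt-Atp6 and mt-Nd4l, 99.9% for mt-Co3 and 98.99% for mt-Nd3. It was 0% for mt-Nd1 and 51.04% for mt-Co1. By this measure, which sees only copies within annotated genes, sharing and level did not always go together. mt-Atp8 had a median of 0.470 CPM with 0% shared, and mt-Nd4 of 472 CPM with 62.2% shared. A share of 0% does not show that a sequence has no copy elsewhere in the genome.

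Few members followed the naive pluripotency state of the cells. The state was scored as the mean of 17 marker genes, and the slope of each gene is its log2 change per standard deviation of the score, in a model that also holds the cell's share of genes detected. Over the 82 members the median slope was 0.0030, and over all genes -0.052. A slope of 0.5 or more was found for 2 members, beside 9.86% of 10851 genes, and of -0.5 or less for 4, beside 20.8%. The 2 were Ndufv3 (0.52), a complex I accessory subunit, and Atp5g1 (0.52). The 4 were Atp5s (-2.34), Ndufaf5 (-0.59), Ndufaf6 (-0.54) and Ndufaf4 (-0.51), a gene outside the complexes and 3 assembly factors. They had counts in 15, 23, 46 and 59 cells, and the median of Atp5s and of Ndufaf5 was 0. No standard error is given, since the cells are 1 sample. The number of members past this size changed with the model, and at -0.5 or less also with the scaling and the cells used.

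Along the score of the mitochondrially encoded genes the members' median slope was -0.018, against 0.022 for all genes. This score, too, gives the low genes mt-Co2, mt-Atp8, mt-Atp6 and mt-Co3 the same weight as the abundant ones. No member had a slope of 0.5 or more, beside 11.9% of 10857 genes, and 1 had -0.5 or less, beside 6.98%. That member was Ndufaf5 (-1.73), present in 23 cells. The slopes of the subunits alone lay between -0.20 for Ndufs8 and 0.35 for Ndufv3.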

How the data were processed

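Single-cell RNA-seq of 61 E14 cells was used, from a deposited table of raw counts per gene and well. The authors' counts were made with GSNAP, SAMtools 0.1.18, bedtools 2.19.1 and DESeq2 on GRCm38, per the submitters' processing notes, which give no roles. How reads were assigned to genes, by which annotation and whether by strand, is not given in the sources used here. A deposited table of scaled values was not used.

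Counts were scaled by TMM in edgeR 4.0.16 (R 4.3.3). The filter of 10 counts in 10 cells left 10868 genes. The squared coefficient of variation was divided by the trend from scran 1.30.0. Spearman's rho was taken on log2(CPM + 1), a list's mean as the mean of z-scores, and slopes from edgeR's quasi-likelihood fit. Lengths and 50-mers came from GENCODE M21, promoters from RefSeq (GRCm38.p6). The spread and slope code was tested on simulated data. Python 3.11.15, pandas 2.3.3, numpy 2.4.6 and scipy 1.17.1 were used.

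Each sample is 1 cell and no culture is named, so no p-value is given. No molecular identifiers are named, so limits for a count of 0, set at 3 counts, cover counting error only. Totals per cell were 2417702 to 6787261.

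The members and lists were chosen with earlier results of these data known. Genes named were, per complex, the 3 highest and 2 lowest in level; the 5 at each end by ratio and by rho; those past a slope of 0.5; those in fewer than 31 cells; isoform sets and subunit c; other pathway genes; and the 10 non-members most alike, of which 1 is not reported here. Pairs, genes with copies or cores, and genes named for their length or role beyond this rule were chosen after their values were seen. Alternatives were total-count and DESeq2 1.42.0 scaling, other filters and pseudocounts, thinning, other lengths, cells left out, and plate rows.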

Additional observations from a re-analysis of the deposited data

Results flagged for a closer look

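The 95 spike-in rows of the count table, which enter no comparison above, held 14 counts in all, with 4 in the cell that had most and 0 in 53 cells. Counts above 0 in rows outside the main measurement are what drew attention to them. Their origin was not tested.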

How the results depend on the processing

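Members with a ratio over 2, 1 as reported, numbered 2 with DESeq2 size factors, 5 with no filter, 4 with a filter of 30 cells, 2 without wells B10 and F07, 6 in plate rows A to D, 3 in rows E to H, and 0 without assembly factors and Atp5s. The median ratio stayed between 0.433 and 0.576, and members under 0.5 numbered 30 to 46. With DESeq2 size factors, the rho of the members' mean changed sign for mitochondrially encoded genes, from -0.160 to 0.0855, and rose to 0.723 for ribosomal and 0.737 for proteasome genes. On residuals after genes detected, it changed sign for the tricarboxylic acid cycle, from -0.243 to 0.0105, and was 0.0845 for glycolysis, which was 0.168 by summed CPM. For G2/M genes it was -0.206 in plate rows A to D. Values near 0 changed sign under other alternatives too: over all 12, glycolysis ranged from -0.164 to 0.168 and G2/M from -0.206 to 0.113, and the mitochondrially encoded genes from -0.265 to 0.0855. The median rho over pairs ranged from 0.0395 to 0.111. Members with a naive slope of 0.5 or more, 2 as reported, numbered 4 by a line on log2(CPM + 1), 0 with a pseudocount of 10 and 1 with no covariate, and those of -0.5 or less, 4 as reported, numbered 2, 1 and 2. The latter numbered 3 with total counts, with DESeq2 size factors and without wells B10 and F07, so none of the 6 alternatives gave 4. Of the 10 highest members by level, 6 stayed so with the longest transcript and 6 with the main coding transcript. The cause of these changes was not tested.

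Scaling to spike-ins was not run, since 53 cells have no spike-in count. No paired analysis was possible because each sample is 1 cell of 1 condition. Members found in all cells numbered 57 to 60. Zeros of low members at these depths, where 3 counts are 0.442 to 1.24 CPM in a cell, do not show absence.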
